A study of Mus musculus with 4 samples.

Results

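DKmix cells are mouse bone marrow cells that were transduced with β-catenin and kept in culture, and here their transcripts at day 300 are compared with those at day 50. Each time point is 1 Affymetrix array of 4 in the series. The values are the log2 intensity ratios of day 300 over day 50 for every probe set annotated with a single gene symbol, which were 34945 of 45101 probe sets and 18193 genes. Of these genes, 13100 were measured, meaning that at least 1 of the 2 DKmix arrays was above a floor of 48.3, the median of all intensities. The starting cells were LSK cells, which lack lineage markers and carry Sca-1 and c-Kit, the bone marrow fraction with the stem and progenitor cells of blood. One day 3 array held LSK cells transduced with β-catenin, and the other day 3 array held LSK cells transduced with eGFP, a fluorescent protein that serves as the control. The DKmix day 50 and day 300 arrays held β-catenin transduced LSK cells after that length of culture. The retrovirus and its promoter, the mouse strain and whether the day 50 and day 300 cells came from one culture are not given in the sources used here. All groups grew in IMDM with serum and a mix of IL-3, IL-11, SCF and what the labels call Flt3. The stated aim was to find targets of β-catenin, transcription factors above all, in the immortalization of blood stem cells, and the DKmix pair covers the later part of the time course. With 1 array per time point there was no replicate check, no test and no p-value, and all counts below are of differences between these 2 arrays.

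β-catenin is the transcriptional effector of the Wnt pathway, and it acts on DNA through TCF and LEF factors. IL-3 and SCF are the cytokines that carry bone marrow progenitors into mast cells, which store proteases, histamine and heparin in granules and carry the IgE receptor. When oxygen is low, HIF factors escape hydroxylation by the EGLN enzymes and switch on glucose uptake, glycolysis and collagen hydroxylases. Dividing cells express the genes of DNA replication first and those of the spindle later in the cycle.

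The arrays had the same trimmed mean, 150, and median intensities between 39.7 (day 300) and 54.9 (day 50). Of the 18193 genes, 11691 (64.3%) were above the floor at day 50 and 10294 (56.6%) at day 300. The control transcripts showed a gradient from the 3' to the 5' end that was steeper at day 50. For Gapdh the 3'/5' intensity ratio was 4.96 at day 50 and 1.06 at day 300, and for Actb it was 3.41 and 1.20. The ratio for thr, a bacterial control transcript, was 14.8 and 2.43. On the β-catenin day 3 array the Gapdh, Actb and thr ratios were 1.18, 1.32 and 3.12, close to day 300, and on the eGFP day 3 array they were 4.14, 1.83 and 19.5. For Tfrc and the bacterial transcripts lys and trpn, the ratios were 2.29, 0.97 and 1.65 on the eGFP array. They were 12.3, 2.26 and 5.22 at day 50 and 3.05, 1.06 and 1.28 at day 300. Neither day 3 array thus matched the day 50 gradient on every control. The levels on both day 3 arrays are given beside the DKmix values because of these differences. The part of this gradient in each ratio was not tested.

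**Figure D1:**
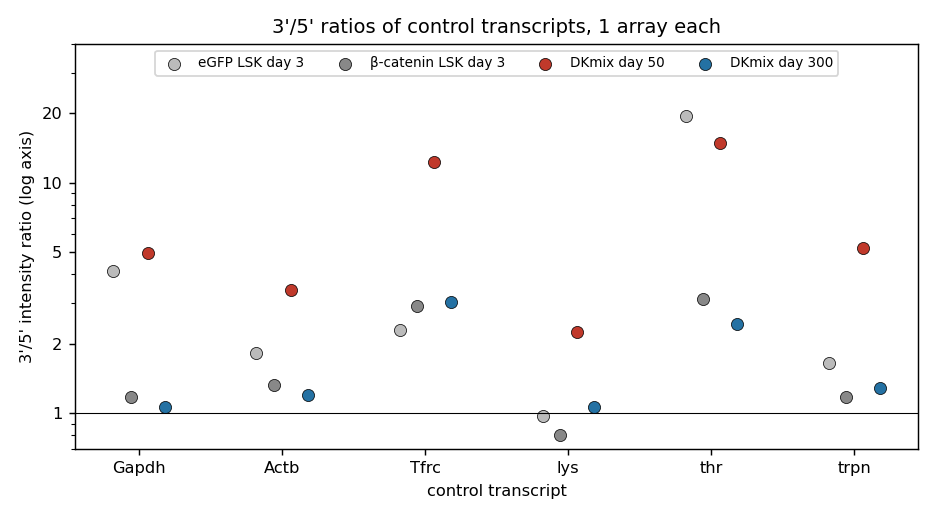
Ratio of the 3' to the 5' intensity (log axis) of 6 control transcripts, 1 point per array. Day 50 (red) lies above day 300 (blue) for all 6, with 4.96 against 1.06 for Gapdh and 12.3 against 3.05 for Tfrc.

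Between day 50 and day 300, 1972 of the 13100 measured genes passed 2-fold upward (15.1%, higher at day 300) and 2078 passed it downward (15.9%), which is 30.9% in all. For 473 of the higher and 753 of the lower genes 1 of the 2 arrays was under the floor, and their fold is a lower limit. At least 4-fold, 471 genes were higher and 338 lower, and at least 16-fold, 23 were higher and 14 lower. The median log2 ratio of all measured genes was -0.14. There was no gap at the 2-fold lines: the nearest genes inside had log2 ratios of 1 and -1, and the nearest outside 0.9995 and -0.9994. Of the higher genes, 30.9% were at least 2-fold above every other array at day 300 and 28.8% at least 2-fold below every other array at day 50. Of the lower genes, 37.0% were at least 2-fold above every other array at day 50 and 20.6% at least 2-fold below every other array at day 300. The only measure of error available within the arrays is the disagreement of probe sets of one gene, which leaves out the spread between cultures. The SD of this disagreement was 0.91 on the log2 scale over 3548 genes, nearly the 2-fold line itself. Of the genes at least 2-fold higher that had a second measured probe set, that probe set had the same sign in 63.1% of 938. For the lower genes it did so in 64.4% of 1028. Ratios of single genes near 2-fold are therefore within the disagreement of probe sets, and the range over probe sets is given below for genes with several.

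**Figure D2:**
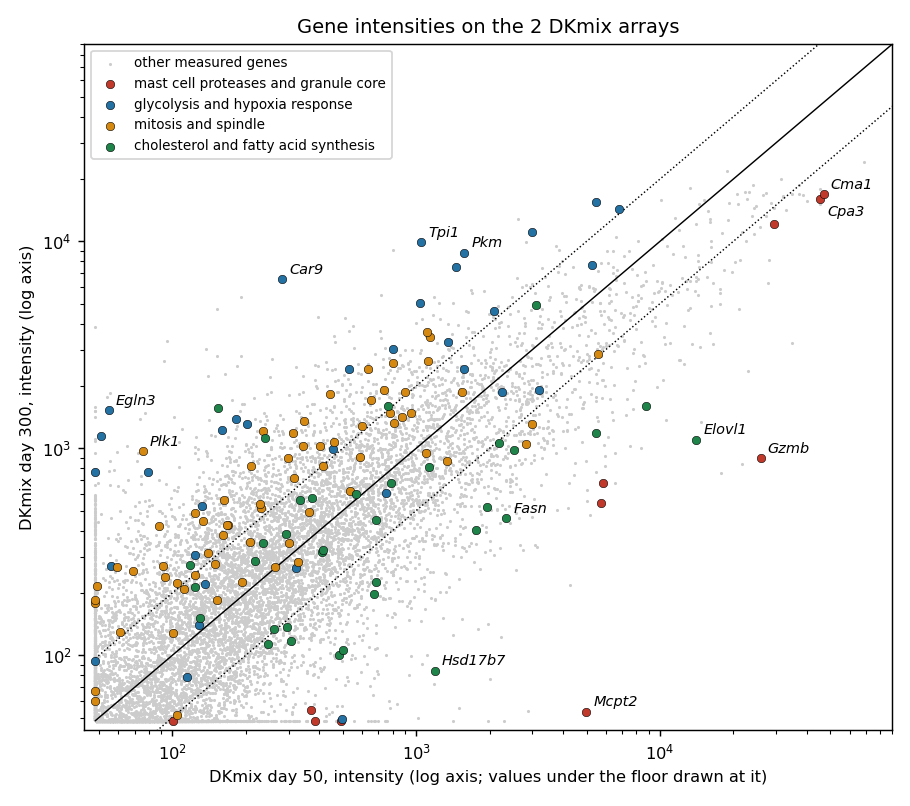
Intensity at day 300 against intensity at day 50 for the 13100 measured genes (grey) and the members of 4 gene lists (coloured), both axes logarithmic, with values under 48.3 drawn at 48.3. The solid line marks equal intensity and the dotted lines 2-fold, and Mcpt2 (4997.5 against 53.3) and Car9 (282 against 6552) lie far on opposite sides.

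Mast cell granule genes were lower at day 300. All 11 measured members of the list of mast cell proteases and granule core genes were at least 2-fold lower, beside 15.9% of all genes, and their median log2 ratio was -2.99. After quantile normalization or lowess centring 7 of the 11 were, with medians of -2.98 and -2.92. For 8 of the 11, the day 50 array was at least 2-fold above each of the other 3 arrays, beside 37.0% of all lower genes. In a bulk sample, fewer mast cells and less transcript per cell cannot be told apart.

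Mcpt2, a chymase-like protease of mucosal mast cells, had the widest loss of any gene with an intensity past 193 on 1 of the arrays: it read 43.4 (eGFP), 2 (β-catenin), 4997.5 (day 50) and 53.3 (day 300), which is 93.8-fold lower. Day 50 stood alone, and the other 3 arrays lay near or under the floor. Gzmb, granzyme B, a serine protease of cytotoxic and mast cell granules, read 25.4 (eGFP), 1462 (β-catenin), 25886 (day 50) and 898 (day 300) (28.8-fold lower). The tryptase Tpsb2 read 111 (eGFP), 11.6 (β-catenin), 5820 (day 50) and 683 (day 300), 8.52-fold lower, with log2 ratios of -3.09 to -2.22 over its probe sets. Tpsg1, a membrane-bound tryptase, read 28.9 (eGFP), 8.4 (β-catenin), 5748 (day 50) and 545 (day 300) (10.5-fold lower). Both tryptases stayed above either day 3 array at day 300. Mcpt4, a chymase of connective tissue mast cells, read 148 (eGFP), 34.1 (β-catenin), 489.5 (day 50) and 27.8 (day 300), so it was at least 10.1-fold lower and ended below the floor.

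The most intense granule genes were lower by less, and by less than 2-fold after quantile normalization, which gave log2 ratios of -0.28 for Cma1, -0.31 for Cpa3 and -0.48 for Srgn. Cma1, the chymase that cleaves angiotensin I, read 17.3 (eGFP), 6.9 (β-catenin), 46986 (day 50) and 16866 (day 300) (2.79-fold lower). Cpa3, mast cell carboxypeptidase, read 135 (eGFP), 1559.7 (β-catenin), 45531 (day 50) and 15951 (day 300) (2.85-fold lower). Both remained far above the day 3 arrays on both DKmix arrays. Srgn encodes serglycin, the proteoglycan core that packs granule proteases. It read 13152 (eGFP), 9249.7 (β-catenin), 29397 (day 50) and 12163 (day 300) (2.42-fold lower), and day 300 lay between the day 3 arrays. Ctsg, cathepsin G, a neutrophil and mast cell protease, read 16275 (eGFP), 4449 (β-catenin), 385 (day 50) and 14.1 (day 300), at least 7.97-fold lower at day 300, and Mcpt8, a basophil protease, read 1023 (eGFP), 1095 (β-catenin), 370.4 (day 50) and 54.1 (day 300). These were highest on the day 3 arrays, unlike the mast cell chymases and tryptases.

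The histamine gene went the other way. Hdc, histidine decarboxylase, which makes histamine, read 82.4 (eGFP), 234 (β-catenin), 23 (day 50) and 1514 (day 300), at least 31.4-fold higher at day 300, with log2 ratios of 3.41 to 4.97 over its 2 probe sets. Ddc, the decarboxylase of the serotonin pathway, read 42.8 (eGFP), 29.6 (β-catenin), 844 (day 50) and 2456 (day 300) (2.91-fold higher, probe sets 0.41 to 1.54). Tph1, which carries out the first step of serotonin synthesis, was high on both DKmix arrays, 20674 and 16988 (log2 ratio -0.28). Ltc4s, the leukotriene C4 synthase, was lower, with 1875 (eGFP), 145 (β-catenin), 1039 (day 50) and 419 (day 300). Over the 12 measured genes of mediator synthesis, 2 passed 2-fold upward and 2 downward (median log2 ratio -0.26). These shares were near the 15.1% and 15.9% of all genes. Maob, a monoamine oxidase that breaks down amines, had 5.9 (eGFP), 9.1 (β-catenin), 4273 (day 50) and 219.6 (day 300) and was 19.5-fold lower. Among heparin synthesis genes, 3 of 14 were higher and 4 lower, beside 15.1% and 15.9% of all genes. The chain polymerase Ext1 read 17.4 (eGFP), 103.5 (β-catenin), 14.4 (day 50) and 427 (day 300) (at least 8.84-fold higher), and Ndst2, the sulfotransferase that mast cell heparin needs, read 80.8 (eGFP), 162 (β-catenin), 2337 (day 50) and 700 (day 300) (3.34-fold lower).

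Mast cell receptor and signalling genes differed in both directions. Of 13 measured receptor and signalling genes, 3 passed 2-fold upward and 5 downward, beside 15.1% and 15.9% of all genes. The list's median log2 ratio of -0.82 turned to 0.09 with each gene's log2 ratio of smallest size, whatever its sign. Kit, the SCF receptor, read 55.8 (eGFP), 82.9 (β-catenin), 3459.5 (day 50) and 1263 (day 300), and its 2 probe sets gave log2 ratios of -1.45 to -0.23. Fcer1a, the IgE-binding chain, read 64.4 (eGFP), 723.5 (β-catenin), 28507 (day 50) and 15387.5 (day 300) (log2 ratio -0.89, and 0.04 after quantile normalization). Ms4a2, the IgE receptor β chain, read 87.3 (eGFP), 811 (β-catenin), 19763 (day 50) and 7153 (day 300), with probe sets from -1.47 to 0.18. For all 3 receptors day 300 lay between day 50 and the day 3 arrays. Lat, the adaptor downstream of the IgE receptor, read 169 (eGFP), 156 (β-catenin), 732 (day 50) and 2717 (day 300) (3.71-fold higher), and the related adaptor Lat2 read 40.7 (eGFP), 256 (β-catenin), 963 (day 50) and 2284 (day 300) (2.37-fold higher). Pirb, an inhibitory receptor, read 132 (eGFP), 120.2 (β-catenin), 777 (day 50) and 59.9 (day 300) (13-fold lower). Both adaptors were highest at day 300, whereas Pirb was high at day 50 alone. Among the receptors for the culture cytokines, 1 of 9 was higher and 4 lower, beside 15.1% and 15.9% of all genes. Csf2rb2, the IL-3 specific β chain, read 562 (eGFP), 625.5 (β-catenin), 10363 (day 50) and 3463 (day 300) (2.99-fold lower).

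Defining markers of blood cell types were checked on all arrays. Of 8 mast cell markers, 7 were above the floor on each DKmix array, Hdc being the one under it at day 50 and Mcpt4 at day 300. On the day 3 arrays, 7 were above it with eGFP and 5 with β-catenin. The summed intensity of the 8 markers was 150578 at day 50 and 58845 at day 300, against 3463 and 701 on the β-catenin and eGFP day 3 arrays. Most of both DKmix sums came from Cma1, Cpa3 and Fcer1a, whose DKmix ratios were within 2-fold after quantile normalization. The fall of the sum thus depended on the normalization. The 7 neutrophil markers summed to 314 at day 50 and 159.8 at day 300, against 67265 on the eGFP array, and Elane, Camp, S100a8 and S100a9 were under the floor on both DKmix arrays. The T cell markers Cd3e and Cd3g were under the floor on every array. Among the stem and progenitor markers, Flt3 was under the floor on all 4 arrays, and Slamf1 read 62.9 at day 50 and 39 at day 300. Cd34, a progenitor marker that mast cells also carry, read 112 (eGFP), 804 (β-catenin), 2068.5 (day 50) and 4293 (day 300) (2.08-fold higher). Of the 6 macrophage and dendritic cell markers, Mpeg1 and H2-Aa were under the floor on both DKmix arrays. Csf1r read 11798 (eGFP), 1999.5 (β-catenin), 121 (day 50) and 39.2 (day 300). The 6 markers summed to 511 at day 50 and 5646 at day 300, against 19166 and 18108 on the β-catenin and eGFP day 3 arrays. Most of the day 300 sum was Cd68. Cd68, a lysosomal membrane protein, read 163 (eGFP), 469 (β-catenin), 192 (day 50) and 5407 (day 300) (28.2-fold higher, 1 probe set).

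**Figure D3:**
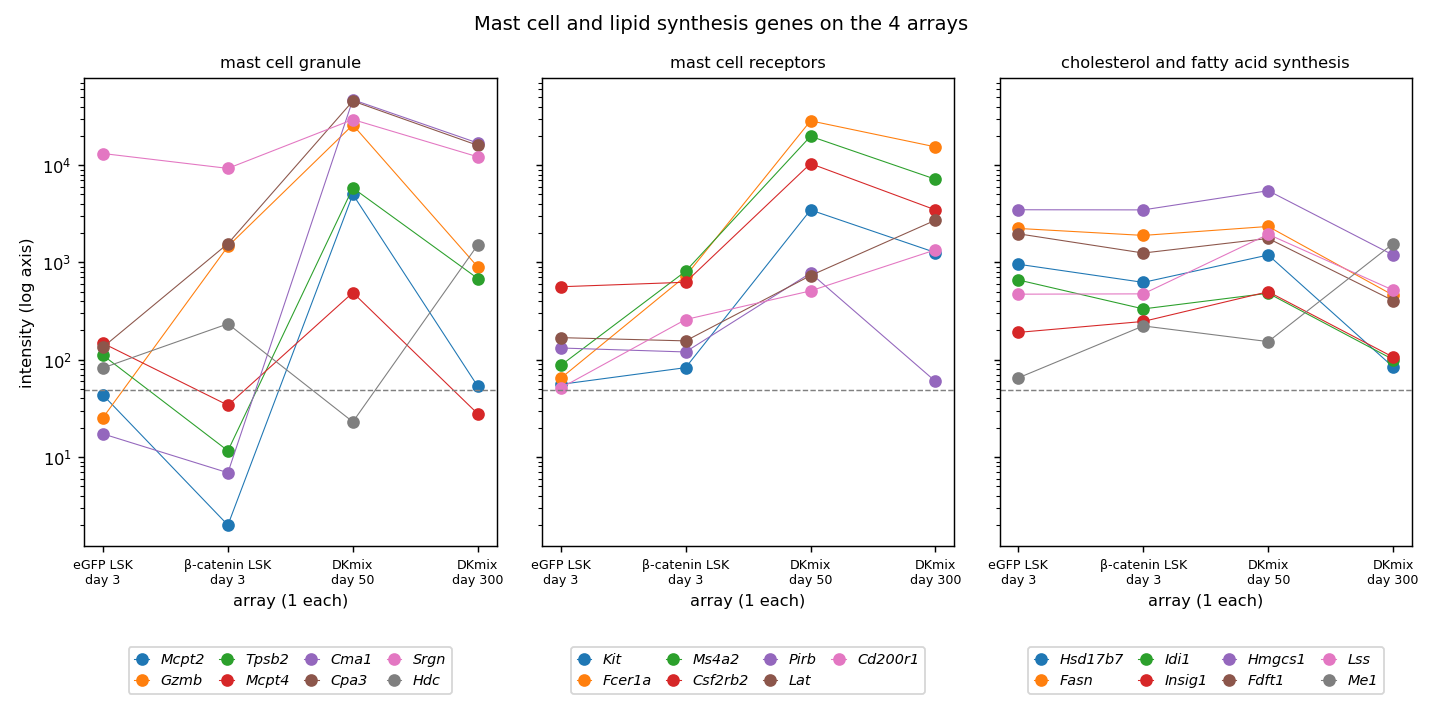
Intensities (log axis) of mast cell granule genes, mast cell receptors and lipid synthesis genes on the 4 arrays, with thin lines joining the values of one gene and a dashed line at the floor of 48.3. The chymases and tryptases peak at day 50, Hdc is highest at day 300 (1514), and Hsd17b7, Fasn, Idi1, Insig1, Hmgcs1 and Fdft1 are lowest at day 300.

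Genes of glycolysis and the hypoxia response were higher at day 300. Of 34 measured members, 23 passed 2-fold upward and 1 downward, beside 15.1% and 15.9% of all genes, and the list's median log2 ratio was 1.69. When the probe set with the log2 ratio of smallest size stood for each gene, 18 of 34 were higher and 1 lower. The shares of all genes were then 9.62% and 9.81%. Day 300 was at least 2-fold above every other array for 8 of the 23, beside 30.9% of all higher genes. Day 50 was at least 2-fold below every other array for 9 of them, beside 28.8% of all higher genes. The list had a median log2 ratio of 0.77 for day 300 over the β-catenin day 3 array and -0.40 for day 50 over that array.

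The hypoxia response genes and transporters held the widest differences. Egln3, the oxygen-dependent prolyl hydroxylase that is itself a HIF target, read 1856 (eGFP), 686 (β-catenin), 54.7 (day 50) and 1526 (day 300), 27.9-fold higher, with both probe sets giving 3.25 to 4.80. Day 50 was the low array here, and eGFP was above day 300. Car9, a carbonic anhydrase that exports acid from hypoxic cells, read 143 (eGFP), 180.1 (β-catenin), 282 (day 50) and 6552 (day 300) (23.3-fold higher). For Car9 day 300 stood alone above the other arrays. Slc16a3, the lactate exporter MCT4, read 176 (eGFP), 216 (β-catenin), 79.5 (day 50) and 765 (day 300) (9.62-fold higher). Slc2a3, the glucose transporter GLUT3, read 1542 (eGFP), 836 (β-catenin), 1453 (day 50) and 7516 (day 300), with probe sets from 1.54 to 2.37. The glucose transporter Slc2a1 read 3183.5 at day 50 and 1922 at day 300, but its 3 probe sets disagreed, from -0.73 to 2.16. P4ha2, a collagen prolyl hydroxylase, read 53.3 (eGFP), 69 (β-catenin), 183 (day 50) and 1382 (day 300) (7.55-fold higher), and P4ha1 read 352 (eGFP), 449 (β-catenin), 806 (day 50) and 3011 (day 300) (probe sets 1.90 to 3.15). Plod2, a collagen lysyl hydroxylase outside the list, read 101 (eGFP), 200.3 (β-catenin), 94.6 (day 50) and 3316 (day 300) (35.1-fold higher, probe sets 3.90 to 5.13). On the day 300 array all 3 hydroxylase genes exceeded any other array by at least 2-fold. Hif1a itself read 208 (eGFP), 516 (β-catenin), 320 (day 50) and 264 (day 300), and its 3 probe sets gave -1.81 to -0.28, none of them higher.

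Among the 15 measured glycolytic enzymes, 11 passed 2-fold upward and 1 downward, beside 15.1% and 15.9% of all genes. This subgroup was drawn after the values were seen. Pfkm, the muscle form of phosphofructokinase, read 45.9 (eGFP), 233 (β-catenin), 51.1 (day 50) and 1142 (day 300) (22.4-fold higher), and the liver form Pfkl read 649 (eGFP), 1179 (β-catenin), 159.9 (day 50) and 1223 (day 300), with probe sets from 0.54 to 2.93. Tpi1, triosephosphate isomerase, read 5389 (eGFP), 7093 (β-catenin), 1045 (day 50) and 9896.5 (day 300) (9.47-fold higher, probe sets 2.40 to 3.24). Pkm, pyruvate kinase, read 3522 (eGFP), 8951 (β-catenin), 1572 (day 50) and 8816 (day 300) (5.61-fold higher). For these enzymes day 50 was at least 4-fold below the β-catenin day 3 array, and day 300 was near that array or above it. Eno2, an enolase otherwise typical of neurons, differed from them: it read 12 (eGFP), 5.7 (β-catenin), 6.8 (day 50) and 767 (day 300), under the floor on all arrays but day 300 (at least 15.9-fold higher). Eno3, the muscle enolase, which is outside the list, read 118 (eGFP), 127.5 (β-catenin), 92.2 (day 50) and 2643 (day 300) (28.7-fold higher). Hk2, hexokinase 2, read 1657 (eGFP), 1851 (β-catenin), 529 (day 50) and 2413 (day 300), and Ldha, lactate dehydrogenase A, read 11263 (eGFP), 15207.5 (β-catenin), 6807 (day 50) and 14365 (day 300) (2.11-fold higher). Aldoc, the brain aldolase, was the single enzyme past 2-fold in the other direction, with 144 (eGFP), 357 (β-catenin), 497 (day 50) and 49.2 (day 300) (10.1-fold lower). Gapdh, which has no probe set with that symbol alone, was 2.42-fold higher at day 300 by its 3' control probe set. Its 5' control probe set gave 11.3-fold, a value that includes the steeper 3'/5' gradient of day 50. The 5' fold exceeded the 3' fold for every control transcript, also for the bacterial thr (2.63 against 0.43). The part of the gradient in the Gapdh values was not tested.

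The core of the hypoxia response element, ACGTG or GCGTG on either strand, lay in 80.9% of the 47 RefSeq promoter windows of 33 list genes, against 43.8% of all 32851 windows (250 bases before to 50 after each start). For the list genes at least 2-fold higher the share was 75.8%. It was also above that of all windows in the mitosis (66.1%), replication (56.9%) and cholesterol (55.3%) lists. These letters were chosen after the values were seen, the forms differ in 1 letter, and a match describes sequence, not a site in use. Stretches of 150 bases before the start (GRCm38.p6) are shown for 4 of the higher genes, 5' to 3' on the gene's strand, with every match in capitals: 3 whose stretch holds a match, and Egln3, whose stretch holds none.
Car9 (chr4:43506876-43507025, plus strand): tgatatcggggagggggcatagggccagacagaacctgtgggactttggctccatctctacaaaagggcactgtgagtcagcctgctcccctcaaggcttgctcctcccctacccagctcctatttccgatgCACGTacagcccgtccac
Bnip3 (chr7:138909507-138909656, minus strand): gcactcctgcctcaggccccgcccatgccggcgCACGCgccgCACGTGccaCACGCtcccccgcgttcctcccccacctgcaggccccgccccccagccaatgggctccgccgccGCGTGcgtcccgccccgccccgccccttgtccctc
Pfkl (chr10:78009808-78009957, minus strand): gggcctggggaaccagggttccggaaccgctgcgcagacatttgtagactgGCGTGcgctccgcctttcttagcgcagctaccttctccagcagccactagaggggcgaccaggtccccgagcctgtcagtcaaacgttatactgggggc
Egln3 (chr12:54203875-54204024, minus strand): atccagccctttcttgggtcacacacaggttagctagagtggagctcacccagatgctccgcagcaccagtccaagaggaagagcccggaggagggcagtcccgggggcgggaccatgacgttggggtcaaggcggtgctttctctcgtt
Bnip3, a mitochondrial BH3 protein and known HIF target, read 2752 (eGFP), 1419 (β-catenin), 1033 (day 50) and 5039 (day 300) (4.88-fold higher), and its stretch held the most capitals of the 4.

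**Figure D4:**
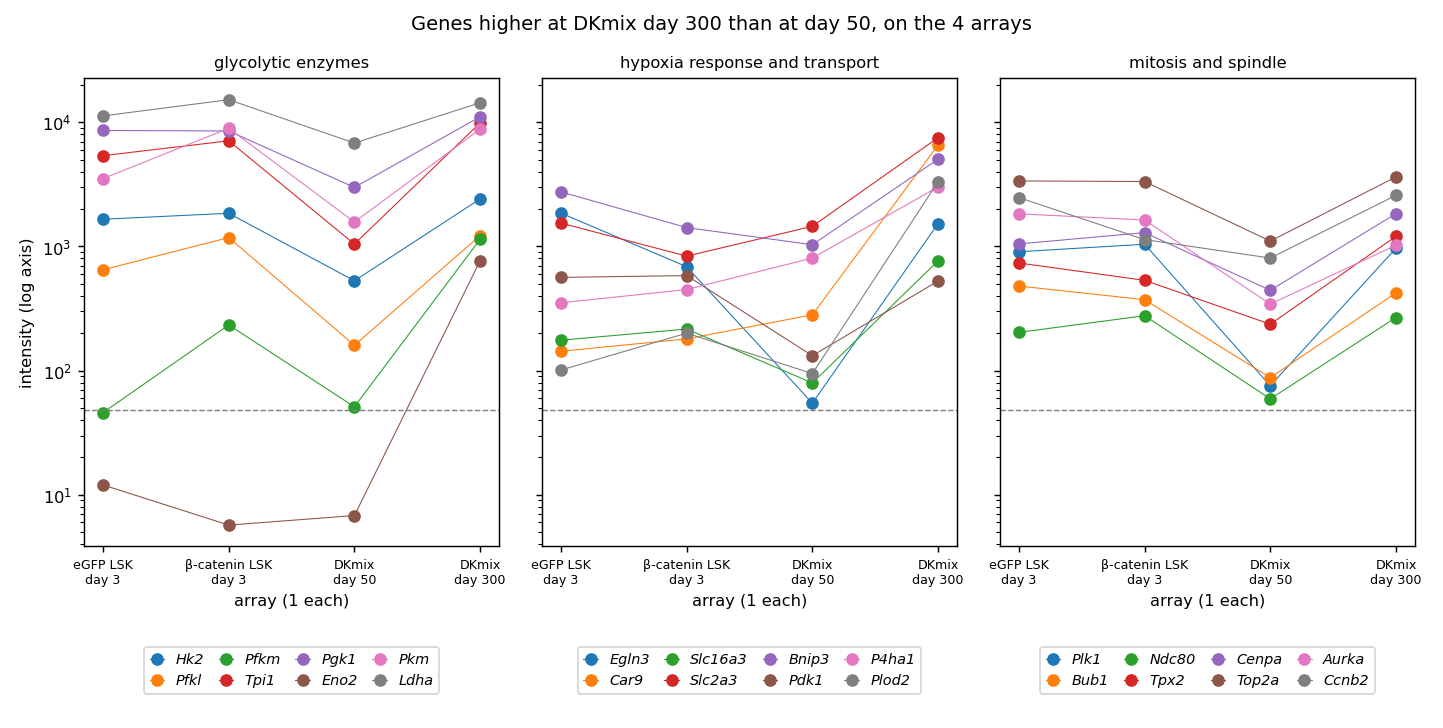
Intensities (log axis) of glycolytic enzymes, hypoxia response genes and mitotic genes on the 4 arrays, with thin lines joining the values of one gene and a dashed line at the floor of 48.3. Mitotic genes such as Plk1 are low at day 50 alone (75.5), whereas Car9 and Eno2 are high at day 300 alone (6552 and 767).

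Mitotic genes were higher at day 300, where they were near their day 3 levels. Of 66 measured members of the mitosis and spindle list, 39 passed 2-fold upward and 3 downward, beside 15.1% and 15.9% of all genes. The list's median log2 ratio was 1.18. With the ratio of smallest size among each gene's probe sets, 28 of 66 were higher and 1 lower, beside 9.62% and 9.81% of all genes. Day 50 was at least 2-fold below every other array for 22 of the 39, beside 28.8% of all higher genes. Day 300 was at least 2-fold above every other array for 2 of them, beside 30.9% of all higher genes. The median log2 ratio was 0.17 for day 300 over the β-catenin day 3 array and -0.12 over the eGFP array. For day 50 those medians were -0.89 and -1.25.

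Plk1, the polo-like kinase of mitotic entry, read 906 (eGFP), 1042 (β-catenin), 75.5 (day 50) and 968 (day 300) (12.8-fold higher, 1 probe set). Bub1, a spindle checkpoint kinase, read 479.8 (eGFP), 372.5 (β-catenin), 87.8 (day 50) and 423 (day 300) (4.81-fold higher). Ndc80, the kinetochore protein that holds microtubules, read 203 (eGFP), 277 (β-catenin), 59.2 (day 50) and 268 (day 300) (4.52-fold higher). In all 3, the day 50 array was the low one and the other 3 lay within 2-fold of each other. Top2a, the topoisomerase that untangles sister chromatids, read 3371 (eGFP), 3334 (β-catenin), 1104 (day 50) and 3630.1 (day 300), with probe sets from 1.44 to 1.72. Aurka, the centrosome kinase, read 1831 (eGFP), 1634 (β-catenin), 343 (day 50) and 1024 (day 300) (2.98-fold higher). Mki67, the proliferation antigen Ki-67, read 3435 (eGFP), 2258 (β-catenin), 1122 (day 50) and 2644 (day 300) (2.36-fold higher). The centromeric histone Cenpa and the spindle factor Tpx2 were 4.14-fold and 5.1-fold higher, but other probe sets of these genes gave down to -0.35 and -0.93.

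DNA replication genes differed less evenly. Of 48 measured, 14 passed 2-fold upward and 6 downward, beside 15.1% and 15.9% of all genes (median log2 ratio 0.26). Tk1, thymidine kinase of the S phase, read 424 (eGFP), 593 (β-catenin), 36.1 (day 50) and 509.5 (day 300) (at least 10.5-fold higher), and Pold2, a DNA polymerase δ subunit, read 395 (eGFP), 767 (β-catenin), 103 (day 50) and 458 (day 300) (4.46-fold higher). Gmnn, geminin, the inhibitor of origin licensing, read 2841 (eGFP), 1505 (β-catenin), 1248 (day 50) and 374 (day 300) (3.33-fold lower). For Tk1 day 50 was the low array, and for Gmnn day 300 was. Over the list, the median was -1.16 for day 50 and -0.79 for day 300 over the β-catenin day 3 array.

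Among 27 cyclins, CDKs, CDK inhibitors and pocket proteins, 11 were higher and 2 lower, beside 15.1% and 15.9% of all genes. Ccnd1, cyclin D1, a known β-catenin target, read 362 (eGFP), 338 (β-catenin), 169.8 (day 50) and 1136 (day 300), with probe sets from 0.69 to 2.74. Rbl2, the pocket protein p130, read 189 (eGFP), 182 (β-catenin), 228 (day 50) and 891 (day 300) (probe sets 1.44 to 1.97). Both were highest at day 300. Cdkn2a, the locus of p16Ink4a and p19Arf, which restrain immortalization in culture, read 3.7 (eGFP), 7.7 (β-catenin), 288 (day 50) and 2 (day 300), at least 5.96-fold lower. It was above the floor at day 50 alone. Cdkn1a, which encodes p21, read 2974 (eGFP), 2732 (β-catenin), 2980.5 (day 50) and 6217 (day 300) (probe sets 1.06 to 2.63), and Cdkn2c, which encodes p18, read 123 (eGFP), 25.1 (β-catenin), 263 (day 50) and 566 (day 300). Ccnd2, cyclin D2, read 5888 (eGFP), 4335 (β-catenin), 10649 (day 50) and 4951 (day 300), with 7 probe sets from -2.69 to 0.05.

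Promoter windows of the mitosis list were searched for 4 motifs, whose letters were also chosen after the values were seen. CCAAT, the core of the box bound by NF-Y, lay on either strand in 74.2% of 62 windows (56 genes) against 37.4% of all windows. TTTGAA, the cell cycle homology region core, lay in 64.5% against 17.9%, and GGCGGGA, a form of the E2F site, in 25.8% against 11.3%. GATAAG, the sequence bound by the GATA family of factors, lay in none of the 62 windows against 7.44%. For the 51 windows of the replication list the shares were 52.9% for the NF-Y core, 19.6% for the homology region core, 33.3% for the E2F form and 3.92% for the GATA family sequence. Other lists held some of these as often or nearly so: the NF-Y core lay in 65.8% of cholesterol windows, the E2F form in 29.8% of glycolysis windows and the homology region core in 41.7% of the 12 mast cell protease windows. The GATA family sequence was also in none of the 47 glycolysis windows. Stretches of 150 bases before the start (GRCm38.p6) of 5 genes past 2-fold upward are shown 5' to 3', with the NF-Y and homology region cores, on either strand, in capitals, and each of the 5 holds at least 1 match.
Plk1 (chr7:122159285-122159434, plus strand): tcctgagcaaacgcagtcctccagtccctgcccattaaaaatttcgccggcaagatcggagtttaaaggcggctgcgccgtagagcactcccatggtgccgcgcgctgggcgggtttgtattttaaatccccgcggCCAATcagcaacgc
Bub1 (chr2:127831860-127832009, minus strand): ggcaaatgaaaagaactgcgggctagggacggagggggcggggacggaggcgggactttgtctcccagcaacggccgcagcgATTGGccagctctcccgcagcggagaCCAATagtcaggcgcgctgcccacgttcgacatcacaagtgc
Ccnb2 (chr9:70421555-70421704, minus strand): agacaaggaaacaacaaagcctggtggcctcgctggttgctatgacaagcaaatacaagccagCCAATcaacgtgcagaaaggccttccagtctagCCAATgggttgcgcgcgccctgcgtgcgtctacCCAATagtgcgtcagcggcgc
Cdc20 (chr4:118437344-118437493, minus strand): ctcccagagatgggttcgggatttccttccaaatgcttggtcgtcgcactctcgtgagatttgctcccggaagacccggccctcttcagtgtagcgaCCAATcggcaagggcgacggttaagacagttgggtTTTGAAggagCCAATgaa
Cenpa (chr5:30666736-30666885, plus strand): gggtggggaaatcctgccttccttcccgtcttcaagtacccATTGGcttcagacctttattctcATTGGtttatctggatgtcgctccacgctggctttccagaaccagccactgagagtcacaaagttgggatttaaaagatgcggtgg
Ccnb2, the mitotic cyclin B2, read 2474.5 (eGFP), 1136 (β-catenin), 807 (day 50) and 2582.5 (day 300) (3.2-fold higher). Cdc20, the activator of the anaphase-promoting complex, read 2135 (eGFP), 2150 (β-catenin), 735 (day 50) and 1919 (day 300), with probe sets from -0.05 to 1.38.

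**Figure D5:**
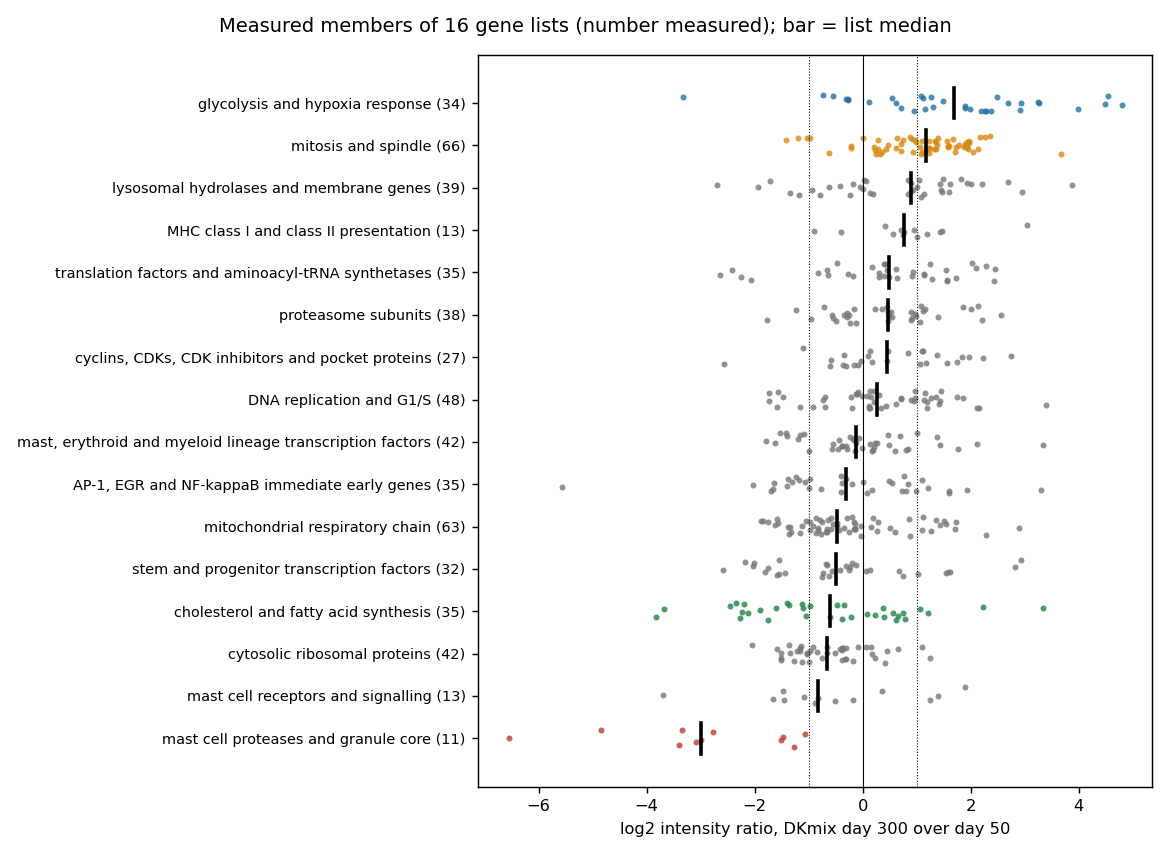
Log2 intensity ratio of day 300 over day 50 (horizontal axis) for the measured members of 16 gene lists, 1 point per gene, with a black bar at the list median and dotted lines at 2-fold. Glycolysis and hypoxia (median 1.69) and mitosis (1.18) lie farthest to the right and the mast cell granule list (-2.99) farthest to the left.

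Many sterol and fatty acid synthesis genes were lower at day 300. Of 35 measured members, 16 passed 2-fold downward and 4 upward, beside 15.9% and 15.1% of all genes. The list's median log2 ratio was -0.61. With the ratio of smallest size among each gene's probe sets, 10 were lower and 4 higher, beside 9.81% and 9.62% of all genes. For 11 of the 16 the day 300 array was at least 2-fold below every other array, beside 20.6% of all lower genes. The median was -0.96 for day 300 over the β-catenin day 3 array and -0.04 for day 50 over it. Hsd17b7, a 3-ketosteroid reductase of cholesterol synthesis, read 958 (eGFP), 623 (β-catenin), 1192 (day 50) and 84.2 (day 300) (14.2-fold lower, probe sets -3.82 to -0.81). Fasn, fatty acid synthase, read 2234 (eGFP), 1894 (β-catenin), 2342 (day 50) and 460.1 (day 300) (5.09-fold lower). Idi1, isopentenyl diphosphate isomerase, read 660.3 (eGFP), 333 (β-catenin), 482 (day 50) and 100.4 (day 300) (4.8-fold lower). Day 300 was the lowest array for each. Insig1, the sterol sensor that holds SREBP in the endoplasmic reticulum, read 191 (eGFP), 247 (β-catenin), 500.2 (day 50) and 106 (day 300) (4.71-fold lower), and Lss, lanosterol synthase, read 472 (eGFP), 475 (β-catenin), 1944.5 (day 50) and 518.5 (day 300) (probe sets -1.97 to -1.34). Elovl1, an elongase of very long fatty acids, read 8563 (eGFP), 4966.5 (β-catenin), 14106 (day 50) and 1101 (day 300) (12.8-fold lower), although 1 of its probe sets gave 0.93. Against this direction, Fdps, farnesyl diphosphate synthase, read 768 (eGFP), 1675 (β-catenin), 239 (day 50) and 1120.2 (day 300) (4.69-fold higher). Me1, malic enzyme, a source of NADPH, read 65.1 (eGFP), 222.5 (β-catenin), 153.5 (day 50) and 1562 (day 300), with both probe sets giving 3.35 to 3.50. A sterol response element of the form TCACNCCAC lay in 1 of 38 windows of the list (2.63%) against 1.24% of all windows. It lay in 2 of the 47 glycolysis windows (4.26%). These letters were also chosen after the values were seen.

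Lysosomal genes were more often higher than lower: 16 of 39 passed 2-fold upward and 5 downward, beside 15.1% and 15.9% of all genes (median log2 ratio 0.90). With the ratio of smallest size per gene, 9 were higher and 3 lower, beside 9.62% and 9.81% of all genes. Ctsz, cathepsin Z, read 782.5 (eGFP), 4136 (β-catenin), 190.4 (day 50) and 2789 (day 300) (14.6-fold higher, probe sets 1.94 to 3.92). Gusb, β-glucuronidase, read 888 (eGFP), 1611 (β-catenin), 429.9 (day 50) and 1992 (day 300) (probe sets 2.21 to 3.37), and Hexa, a hexosaminidase subunit, read 1934 (eGFP), 1352 (β-catenin), 1629 (day 50) and 4535 (day 300) (2.78-fold higher). For Ctsz and Gusb day 50 was the low array, and for Hexa day 300 was the high one. Sgsh, the heparan sulfamidase, read 74.2 (eGFP), 93.2 (β-catenin), 312 (day 50) and 44.5 (day 300) (at least 6.46-fold lower). Ids, iduronate sulfatase, which also degrades heparan sulfate, read 151 (eGFP), 169 (β-catenin), 1839.5 (day 50) and 479 (day 300) (probe sets -1.94 to -1.12).

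Of 17 aminoacyl-tRNA synthetases, 10 passed 2-fold upward and 1 downward, beside 15.1% and 15.9% of all genes. This subgroup was drawn after the values were seen. Kars, the lysyl-tRNA synthetase, read 1069 (eGFP), 1660.4 (β-catenin), 381.5 (day 50) and 1647 (day 300) (4.32-fold higher), and Sars, the seryl-tRNA synthetase, read 793.5 (eGFP), 2054 (β-catenin), 556 (day 50) and 3049 (day 300) (probe sets 1.30 to 2.46). Proteasome subunits were higher in 10 of 38 cases and lower in 2, beside 15.1% and 15.9% of all genes. Of those 10, 8 were at least 2-fold below every other array at day 50, beside 28.8% of all higher genes. Psmb7, a catalytic subunit, read 512 (eGFP), 922 (β-catenin), 229.8 (day 50) and 1356 (day 300) (5.9-fold higher). Its immunoproteasome relatives Psmb8 and Psmb9 were 4.38-fold and 4.64-fold higher. Of the cytosolic ribosomal protein genes, 15 of 42 passed 2-fold downward and 2 upward, beside 15.9% and 15.1% of all genes, with a median log2 ratio of -0.66. That difference depended on the normalization. Quantile normalization gave 4 lower and 5 higher with a median of 0.08, and lowess centring gave the same counts with a median of -0.0055. Scaling on hybridisation control probe sets left 13 lower and 2 higher, with a median of -0.61. Rps28 read 30652 (eGFP), 23483 (β-catenin), 45483 (day 50) and 15908 (day 300) (2.86-fold lower, probe sets -1.55 to -1.34) and Rpl41 read 47025 (eGFP), 38717 (β-catenin), 69058 (day 50) and 24264.5 (day 300) (probe sets -1.51 to -0.79). After quantile normalization their log2 ratios were -0.30 and -0.05. Of 63 respiratory chain genes 11 were higher and 13 lower, shares near the 15.1% and 15.9% of all genes, and 8 were lower after quantile normalization. The small subunit Ndufb3 read 4142 (eGFP), 3403 (β-catenin), 8667 (day 50) and 2583 (day 300) (3.36-fold lower), and Uqcrc1, a core subunit of complex III, read 757 (eGFP), 1462 (β-catenin), 244 (day 50) and 1827 (day 300) (7.49-fold higher).

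Transcription factors of stem and progenitor cells were more often lower. Of 32 measured, 10 passed 2-fold downward and 6 upward, beside 15.9% and 15.1% of all genes (median log2 ratio -0.50). With the ratio of smallest size per gene 8 were lower and 4 higher, beside 9.81% and 9.62% of all genes. Myb, which keeps progenitors dividing, read 2607 (eGFP), 4149 (β-catenin), 4461 (day 50) and 740.2 (day 300), 6.03-fold lower, with probe sets from -2.59 to -1.24. Lyl1 and Lmo2, partners in the SCL complex, read 2388.5 (eGFP), 1642.5 (β-catenin), 3417 (day 50) and 750.4 (day 300) and 2971 (eGFP), 1593 (β-catenin), 1293 (day 50) and 321.5 (day 300) respectively. Fli1, an ETS factor, read 399 (eGFP), 202 (β-catenin), 1024 (day 50) and 303 (day 300) (probe sets -1.94 to -1.76). For Myb, Lyl1 and Lmo2 day 300 was the lowest array by at least 2-fold, and for Fli1 day 50 was the highest. Gfi1b, a repressor of erythroid, platelet and mast cell precursors, read 141.5 (eGFP), 443 (β-catenin), 138 (day 50) and 975 (day 300) (7.07-fold higher), and Hlf, a stem cell PAR bZIP factor, read 103 (eGFP), 89.3 (β-catenin), 154 (day 50) and 475 (day 300) (probe sets 1.63 to 2.07). Hoxa9 read 23.8 (eGFP), 266 (β-catenin), 71.5 (day 50) and 3.9 (day 300), and Sox4 read 131 (eGFP), 899.9 (β-catenin), 65.4 (day 50) and 48.7 (day 300) (probe sets -0.56 to -0.37), both near the floor on the DKmix arrays.

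The lineage factors of mast cells differed by less than 2-fold on their brightest probe sets. Gata2, which mast cells depend on, read 4648 at day 50 and 4279 at day 300 (log2 ratio -0.12), although its other probe set gave 1.92. Mitf, which drives mast cell protease genes, read 41.3 (eGFP), 139 (β-catenin), 2533 (day 50) and 1706 (day 300) (log2 ratios -0.57 to -0.38). Tal1 and Gata1 had log2 ratios of -0.31 and -0.28. Over 42 lineage factors 6 were higher and 9 lower, beside 15.1% and 15.9% of all genes (median log2 ratio -0.13). Klf2, a quiescence factor of lymphocytes and endothelium, read 70.9 (eGFP), 135 (β-catenin), 106 (day 50) and 1071.5 (day 300) (10.1-fold higher). Cebpa, the granulocyte factor, read 385 (eGFP), 587 (β-catenin), 108 (day 50) and 3.3 (day 300), above the floor at day 50 and below it at day 300. Stat5b, which carries the IL-3 signal, read 106 (eGFP), 238.5 (β-catenin), 383 (day 50) and 143 (day 300) (probe sets -1.87 to -1.42). Among 23 JAK-STAT genes 7 were higher and 6 lower, beside 15.1% and 15.9% of all genes. Jak3, which pairs with the common γ chain, read 144 (eGFP), 319.7 (β-catenin), 23.8 (day 50) and 340.1 (day 300) (at least 7.04-fold higher).

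Immediate early genes, which rise within minutes of a stimulus, included several that were high at day 50. Of 35 measured, 11 passed 2-fold downward at day 300 and 6 upward, beside 15.9% and 15.1% of all genes. Lowess centring turned that balance, to 8 lower and 9 higher, beside 12.2% and 16.3% of all genes with that centring. Quantile normalization gave 10 lower and 8 higher, beside 14.7% and 14.9% of all genes. Scaling on hybridisation control probe sets gave 8 lower and 6 higher of 32. On the deposited scale the day 50 array was at least 2-fold above every other array for 7 of the 11 lower genes, beside 37.0% of all lower genes. Fos read 440.5 (eGFP), 522 (β-catenin), 2301 (day 50) and 45.8 (day 300), at least 47.6-fold lower, and Egr1 read 648 (eGFP), 1689.8 (β-catenin), 7744.5 (day 50) and 1904 (day 300) (4.07-fold lower). Fosb read 6.6 (eGFP), 11.5 (β-catenin), 101 (day 50) and 23.5 (day 300), Junb read 4.3 (eGFP), 307 (β-catenin), 706 (day 50) and 222 (day 300) and Ier2 read 486 (eGFP), 1114 (β-catenin), 1795 (day 50) and 689.7 (day 300). Each of these 5 genes was highest at day 50. Nfkbiz, an inducible IκB family member, read 62.1 (eGFP), 322 (β-catenin), 74.3 (day 50) and 737 (day 300) (9.92-fold higher, but 1 probe set gave -0.41), and Tnfaip3, the A20 feedback inhibitor of NF-κB, read 187 (eGFP), 433 (β-catenin), 503 (day 50) and 1081 (day 300) (probe sets 1.10 to 1.90).

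The transduced gene differed by less than 2-fold between the time points. Ctnnb1, β-catenin, read 4732 (eGFP), 4492 (β-catenin), 6034 (day 50) and 3132 (day 300), and its 3 probe sets gave log2 ratios of -0.95 to 0.27, all within 2-fold. On the day 3 arrays the probe sets disagreed. The less intense ones were higher with β-catenin, at 1065 against 179.6 (eGFP) and 678.6 against 300.8 (eGFP). Whether the Ctnnb1 probe sets detect the transduced copy is not given in the sources used here. Of 27 measured Wnt pathway components 5 were higher and 4 lower, beside 15.1% and 15.9% of all genes, and of 18 β-catenin and TCF targets 4 were higher and 4 lower. Axin2, the feedback target used as a readout of the pathway, read 71.8 (eGFP), 40.7 (β-catenin), 287.5 (day 50) and 91.4 (day 300) (3.15-fold lower). It was highest at day 50. Id2, an inhibitor of bHLH factors, read 2160 (eGFP), 215.5 (β-catenin), 5102 (day 50) and 2412 (day 300) (probe sets -1.08 to -0.69), and Rnf43, the feedback ubiquitin ligase, read 38.7 (eGFP), 2.8 (β-catenin), 50 (day 50) and 152 (day 300) (3.04-fold higher). Myc read 633 (eGFP), 1276 (β-catenin), 399.5 (day 50) and 641 (day 300) (log2 ratio 0.68).

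Surface and adhesion genes differed in both directions. Among 22 stem and progenitor surface markers 8 were higher and 7 lower, and among 23 integrin and adhesion genes 9 were higher and 4 lower, beside 15.1% and 15.9% of all genes. Cd244a, a SLAM family receptor, read 487 (eGFP), 317 (β-catenin), 2017 (day 50) and 76.5 (day 300) (26.4-fold lower, probe sets -4.72 to -1.39), and its ligand Cd48 read 449.6 (eGFP), 1105 (β-catenin), 656 (day 50) and 34 (day 300) (at least 13.6-fold lower). The tetraspanin Cd9 read 2669.5 (eGFP), 1176 (β-catenin), 4246 (day 50) and 681 (day 300) (6.24-fold lower). Cd244a and Cd9 were highest at day 50, and Cd48 was lowest at day 300. Adgrg1, the adhesion receptor GPR56, read 166.5 (eGFP), 837 (β-catenin), 256 (day 50) and 2696 (day 300) (10.5-fold higher, probe sets 3.08 to 3.40). Selplg, the P-selectin ligand, read 1292 (eGFP), 1983 (β-catenin), 459.7 (day 50) and 3499 (day 300) (7.61-fold higher). The integrin chain Itga4 read 1289.9 (eGFP), 545 (β-catenin), 16.3 (day 50) and 666 (day 300) (at least 13.8-fold higher), with probe sets from 0.28 to 3.78. Of 19 megakaryocyte and platelet genes 4 were higher and 7 lower, beside the same 15.1% and 15.9%. Vwf, von Willebrand factor, read 158 (eGFP), 19.1 (β-catenin), 1412 (day 50) and 4.6 (day 300) (at least 29.2-fold lower), and F2r, the thrombin receptor PAR1, read 267 (eGFP), 873 (β-catenin), 5471 (day 50) and 769 (day 300) (probe sets -2.83 to -2.42). The megakaryocyte marker Itga2b read 6230 at day 50 and 5868 at day 300 (log2 ratio -0.09). Gp1bb was at least 2.65-fold higher and F2rl2 2.13-fold higher. Among 20 myeloid cytokine genes 4 were higher and 2 lower, again beside 15.1% and 15.9%. Il13, a mast cell and Th2 cytokine, read 12.7 (eGFP), 15.7 (β-catenin), 33.4 (day 50) and 230.5 (day 300) (at least 4.77-fold higher), Ccl1 read 139 (eGFP), 89.4 (β-catenin), 4.8 (day 50) and 475.5 (day 300) (at least 9.84-fold higher), and Il6 read 4.7 (eGFP), 255.5 (β-catenin), 739 (day 50) and 218 (day 300) (3.4-fold lower).

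For some genes every probe set pointed one way. Of 232 genes at least 4-fold higher with 2 or more measured probe sets, 72 had every probe set at least 2-fold higher, and of 199 at least 4-fold lower, 46 had every probe set at least 2-fold lower. Igfbp4, an IGF-binding protein, headed the higher genes: it read 689 (eGFP), 3004.5 (β-catenin), 23.3 (day 50) and 3854 (day 300), at least 79.8-fold higher, and its 6 probe sets gave 3.24 to 6.32. Gnai1, a G protein α subunit, read 63.9 (eGFP), 15.9 (β-catenin), 137 (day 50) and 3021 (day 300) (3 probe sets, 4.46 to 5.87), and Praf2 read 94.9 (eGFP), 190 (β-catenin), 73.5 (day 50) and 1388 (day 300) (probe sets 4.24 to 4.38). Hmgn1, a nucleosome-binding protein, read 1621 (eGFP), 3309.7 (β-catenin), 153 (day 50) and 4727 (day 300) (3 probe sets, 3.51 to 4.95). Igfbp4 and Hmgn1 were low at day 50 alone, whereas Gnai1 and Praf2 were high at day 300 alone. Prnp, the prion protein, read 163 (eGFP), 338 (β-catenin), 21623 (day 50) and 843 (day 300), 25.7-fold lower, with both probe sets giving -4.68 to -4.30. Pdzk1ip1 read 272.5 (eGFP), 191 (β-catenin), 2887 (day 50) and 53.7 (day 300) (53.8-fold lower, probe sets -5.75 to -4.37), and Ahr, the aryl hydrocarbon receptor, read 152.5 (eGFP), 153 (β-catenin), 1285 (day 50) and 151.5 (day 300) (probe sets -3.08 to -2.19). All 3 were high at day 50 alone.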

How the data were processed

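Biotinylated cRNA from total RNA was hybridised to 1 array per group, and the deposited intensity values were computed with MAS5 by the authors, per the submitters' processing notes. The software version is not given in the sources used here. Depth has no meaning for arrays, so their number, 1 per group, limits the precision. Values stayed on the deposited scale. Intensities under the floor (48.3, the median of all values) were set to it, and log2 ratios of day 300 over day 50 were taken with pandas 2.3.3. Each gene is given by its brightest probe set, by mean log2 intensity on 4 arrays, named through the platform's annotation. A gene counts as called at 2-fold or more, the script was tested on simulated data, and no test was possible. Members and gene lists were chosen with earlier results of these data known, and 53 lists were examined. Genes were named as the 15 widest ratios each way, up to 5 per list and direction, the markers, and the 10 most uniform over probe sets. Others named within a list, and those outside these, were chosen after their values were seen. Promoter sequences are RefSeq's (GRCm38.p6). Alternatives covered array scale, floor, probe set, pseudocount and fold.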

Additional observations from a re-analysis of the deposited data

How the results depend on the processing

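No paired analysis was possible because each group has 1 array, and no array could be left out. A floor at the 25th percentile (11) gave 3603 higher and 4577 lower genes, and one at the 75th (134.6) gave 1263 and 1009. A pseudocount of 16 in place of the floor gave 3253 lower genes, and 4-fold in place of 2-fold gave 471 higher and 338 lower. The log2 ratio of smallest size among a gene's probe sets, whatever its sign, gave 1298 higher (9.62%) and 1323 lower (9.81%) genes. It turned the median of mast cell receptors to 0.0935 and the log2 ratios of Ccnd2 to 0.0535, Cdc20 to -0.0453, Cenpa to -0.35, Ms4a2 to 0.18 and Nfkbiz to -0.41, because other probe sets stood for those genes. Quantile normalization turned the median of ribosomal protein genes to 0.0761, and it and lowess centring left 7 of 11 mast cell granule genes and 4 of 42 ribosomal protein genes lower. The cause was not tested. The higher floor, with fewer genes measured, moved the medians of mast cell granule genes to -1.69 (10 genes), chemokine receptors to -1.70 (2) and stromal genes to 1.48 (3), and the pseudocount moved that of lymphocyte genes to -1.37. Quantile normalization, lowess centring, scaling on 9 hybridisation control probe sets and the mean of all probe sets left both counts over all genes within 1.5 times. No signal limit beyond the floor was available, and 1 array per time point limits every value here.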

Other observations

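Of 34 measured interferon-stimulated genes, not described above, 9 passed 2-fold upward and 5 downward at day 300. These were 26.5% and 14.7%, beside 15.1% and 15.9% of all genes. Gbp6, an interferon-induced GTPase, read 40.1 (eGFP), 127 (β-catenin), 7.9 (day 50) and 592 (day 300) (at least 12.3-fold higher, probe sets 3.34 to 3.62). Bst2, tetherin, read 1668 (eGFP), 1765 (β-catenin), 498 (day 50) and 2028 (day 300), so day 50 was the low array. The membrane proteins Ifitm1 and Ifitm3 were lower: Ifitm1 read 7664 (eGFP), 10849 (β-catenin), 22927 (day 50) and 2353 (day 300) (9.75-fold lower) and Ifitm3 read 1437.5 (eGFP), 3447 (β-catenin), 326 (day 50) and 11.6 (day 300). Of 13 antigen presentation genes 5 were higher and none lower, beside 15.1% and 15.9% of all genes. Of 33 secretory genes 6 were higher (18.2%) and 4 lower (12.1%), near the 15.1% and 15.9% of all genes (median log2 ratio 0.04). Among the lower ones, Stx3, a syntaxin of granule exocytosis, read 82.1 (eGFP), 383 (β-catenin), 2579 (day 50) and 259 (day 300) (9.97-fold lower, probe sets -3.32 to -1.56), and Rab38 read 709 (eGFP), 1044 (β-catenin), 4181.5 (day 50) and 513 (day 300) (probe sets -3.03 to -1.07). Of 29 oxidant defence genes 7 were higher (24.1%) and 5 lower (17.2%), beside 15.1% and 15.9% of all genes. Gstm1, a glutathione transferase, read 1799 (eGFP), 484 (β-catenin), 193 (day 50) and 1629 (day 300) (probe sets 2.76 to 3.08). Gpx3, an extracellular glutathione peroxidase, read 295.5 (eGFP), 55.5 (β-catenin), 749 (day 50) and 35.5 (day 300) (at least 15.5-fold lower).

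Probe sets without a gene symbol, 9160 apart from controls, leaned to lower values. Of the 4094 measured, 17.6% were at least 2-fold lower at day 300 and 5.57% higher, against 15.9% and 15.1% of genes with a symbol. Of 649 measured probe sets with several symbols, 21.7% were lower and 12.5% higher. These probe sets were not assigned to genes here.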
